A study of Mus musculus with 20 samples.

Results

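The genes described here were 10 core genes of Notch signalling, chosen by name from the 48795 genes of the deposited table: the receptors Notch1, Notch2, Notch3 and Notch4, the ligands Jag1, Jag2 and Dll4, and the Hey1, Hey2 and Heyl transcription factors, which are target genes of the pathway. Each was matched to its symbol through its Ensembl identifier. All 10 were expressed in every heart and entered every test. Their level and their change were measured by RNA sequencing (RNAseq) in embryonic hearts of 2 mouse strains used as models of Down syndrome, each against its own wildtype (WT) littermates, a comparison that addresses whether duplications of 2 overlapping sizes alter the same pathways of the developing heart.

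The series held 20 libraries of dissected, snap frozen hearts of embryonic day E13.5, in 4 groups of 5. The Dp3Tyb group carried the duplication of mouse chromosome 16 from Mir802 to Zbtb21, and the Ts1Rhr group carried the shorter duplication from Cbr1 to Fam3b. Each strain had 5 WT hearts of its own, and all mice were on the C57BL/6J background. The duplications are present in every cell of the embryo, so no promoter or Cre limited them to a tissue. The labels describe all 5 Dp3Tyb hearts as having heart defects, Ts1Rhr hearts 1 and 2 as having them and Ts1Rhr hearts 3, 4 and 5 as not having them. The study's text treats the Ts1Rhr strain as free of heart defects, which conflicts with these labels. The groups used here follow the genotype alone. The sources do not state whether a library held the heart of 1 embryo, and p-values measure the spread between these libraries.

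Notch receptors are single-pass membrane proteins that are cut when they bind a ligand on a neighbouring cell. The released intracellular part enters the nucleus, joins the DNA-binding protein RBPJ and switches on target genes, among them the Hes and Hey repressors. In the embryonic heart the pathway is known for its roles in the endocardium, where it takes part in valve formation and in the growth of the trabeculae, in arterial and coronary vessels, and in the smooth muscle that surrounds them. None of the 10 genes lies on the chromosome that carries the duplications.

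Libraries held 6.60 to 19.6 M reads, with a median of 16.9 M. Markers of heart muscle were present in every library: the summed level of 14 cardiomyocyte genes was between 354596 and 599017 normalized reads in all 20 hearts. Dyrk1a, a kinase gene inside both duplications, had mutant and WT hearts that did not overlap in either strain, the mutant hearts being higher by 1.37-fold in Dp3Tyb and 1.30-fold in Ts1Rhr (limma adjusted p = 0.478 and 0.415 over all genes). Libraries also differed in several ways within groups. Reads on mitochondrially encoded genes made up over 10% of 7 libraries (WT of Dp3Tyb 5, Dp3Tyb 5, WT of Ts1Rhr 1, 2 and 4, and Ts1Rhr 1 and 2, the last pair being the Ts1Rhr hearts described as having defects) and at least 4.85% of every library. The lung and foregut regulator Nkx2-1 was under 2 normalized reads in 3 of 5 WT hearts of Dp3Tyb, 0 of 5 Dp3Tyb hearts, 0 of 5 WT hearts of Ts1Rhr and 2 of 5 Ts1Rhr hearts, and reached 56.1 in the other libraries. The summed level of 8 erythroid genes ran from 35306 to 244259 normalized reads, with medians of 62741 and 57102 in WT and Dp3Tyb hearts and 111009 and 150502 in WT and Ts1Rhr hearts, and that of 8 neural genes from 276 to 709. The mitochondrial share and the lung markers are given below beside the genes they moved with. The part of these traits in the results was not tested, except by the fits with a mitochondrial or lung term described there.

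Levels of different genes were compared as normalized reads per kilobase (kb) of exon, in the 10 WT hearts. Hey2, a transcriptional repressor expressed in ventricular cardiomyocytes and arterial endothelium, had the highest level of the 10, at 345 ± 81.0 normalized reads per kb (SD, n = 10). Jag1, the ligand best known from Alagille syndrome, followed at 177 ± 24.6 reads per kb. Notch2 (131 ± 15.4), Notch1 (115 ± 13.4) and Notch3 (115 ± 26.4) came next, then Heyl (81.0 ± 20.8) and Hey1 (68.1 ± 12.9). Dll4 (54.8 ± 15.0), Notch4 (48.1 ± 9.16) and Jag2 (29.8 ± 6.59) had the lowest levels per kb.

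Of the 9 pairs of neighbours in this order, 8 differed beyond the spread between hearts (exact sign-flip permutation test within hearts, 2-sided, adjusted p between 0.00586 and 0.0132). Their ratios were between 1.12 (Dll4 over Notch4) and 1.92 (Hey2 over Jag1), and each held in at least 9 of 10 hearts. Notch1 and Notch3 did not differ beyond that spread by exon length: Notch1 was the higher in 6 of 10 hearts, with a ratio of 1.02 (exact permutation adjusted p = 0.746). In the 10 mutant hearts 8 of the 9 neighbours kept this order, and with the longest transcript as the length 7 of 9 did, the exceptions being Notch2 over Notch1 and Dll4 over Notch4. The ratio of Notch1 to Notch3 also depends on the length used. Notch1 had 14232 bases of exon but 9488 in its longest transcript, and Notch3 had 9009 and 8083. With the longest transcript Notch1 stands higher beside Notch3, and that difference was not tested.

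**Figure D1:**
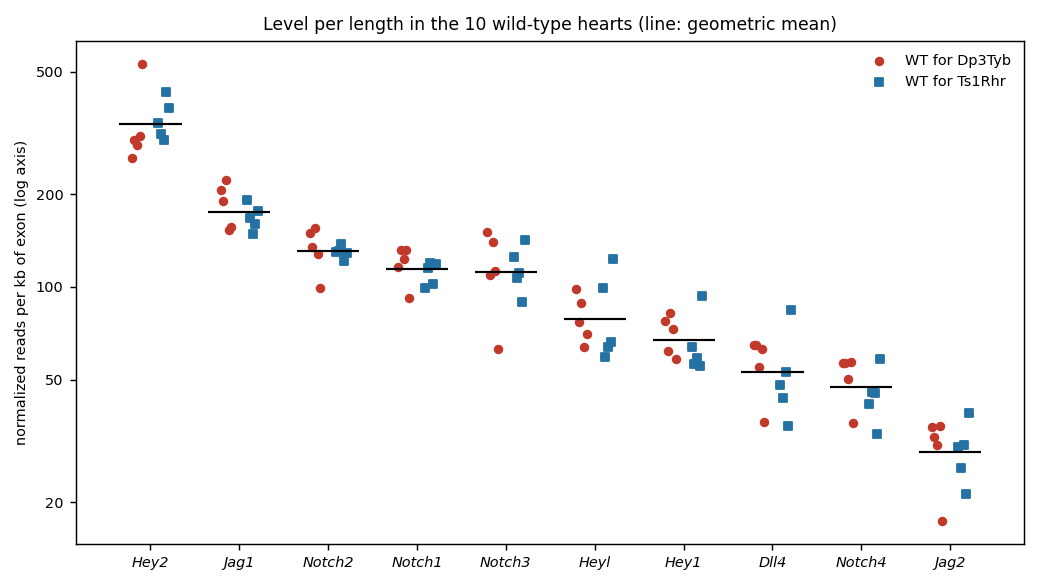
Level of the 10 genes in the 10 WT hearts, as normalized reads per kb of exon on a log axis, ordered by geometric mean (line). Red circles are WT hearts of the Dp3Tyb litters and blue squares WT hearts of the Ts1Rhr litters. Hey2 lies highest and Jag2 lowest, and Notch1 and Notch3 overlap.

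Shares of the per-kb level within the ligands, the Hey genes and the receptors were compared over the 4 groups. Jag1 made up a mean of 67.0% to 69.3% of the summed level of the 3 ligands in the 4 groups, Dll4 19.3% to 21.5% and Jag2 at most 11.6%. Hey2 made up 64.4% to 70.6% of the 3 Hey genes. The receptors were more even by exon length, with Notch1, Notch2 and Notch3 each between 27.0% and 32.5% and Notch4 between 11.1% and 12.3%. Shares with the longest transcript as the length were not computed.

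No member of the set changed detectably in either strain. In Dp3Tyb hearts 0 of 10 passed limma at an adjusted p of 0.05, a threshold that 0.0542% of the 14763 genes tested passed, and 0 of 10 had an unadjusted p under 0.05, against 2.80% of all genes. edgeR and DESeq2, run on the whole reads recovered from the deposited values, also called 0 of 10 (background 0.0677% and 0.192%). No member had groups that did not overlap, against 0.501% of genes wholly higher and 0.474% wholly lower in Dp3Tyb. In Ts1Rhr hearts the same counts were 0 of 10 by limma adjusted p (background 0.0269% of 14867 genes), by unadjusted p (5.52%), by edgeR (0.0269%) and by DESeq2 (0.126%), and 0 members did not overlap (0.619% of genes wholly higher and 0.498% wholly lower).

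In Dp3Tyb, 5 of the 10 fitted changes were positive and 5 negative, with a median log2 change of 0.01 beside -0.00 over all genes. In Ts1Rhr, 8 were positive and 2 negative, with a median of 0.11 beside -0.00. Over all alternative fits 0 of 10 members kept one sign in Dp3Tyb and 5 of 10 in Ts1Rhr. The change of each member is given as the log2 difference of normalized reads plus 1, with its standard error (SE). The 95% confidence intervals of all 10 members lay within 2-fold in both strains, and those of 8 of 10 lay within 1.5-fold in each. These intervals bound the change of each gene and do not show that levels were equal.

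**Figure D2:**
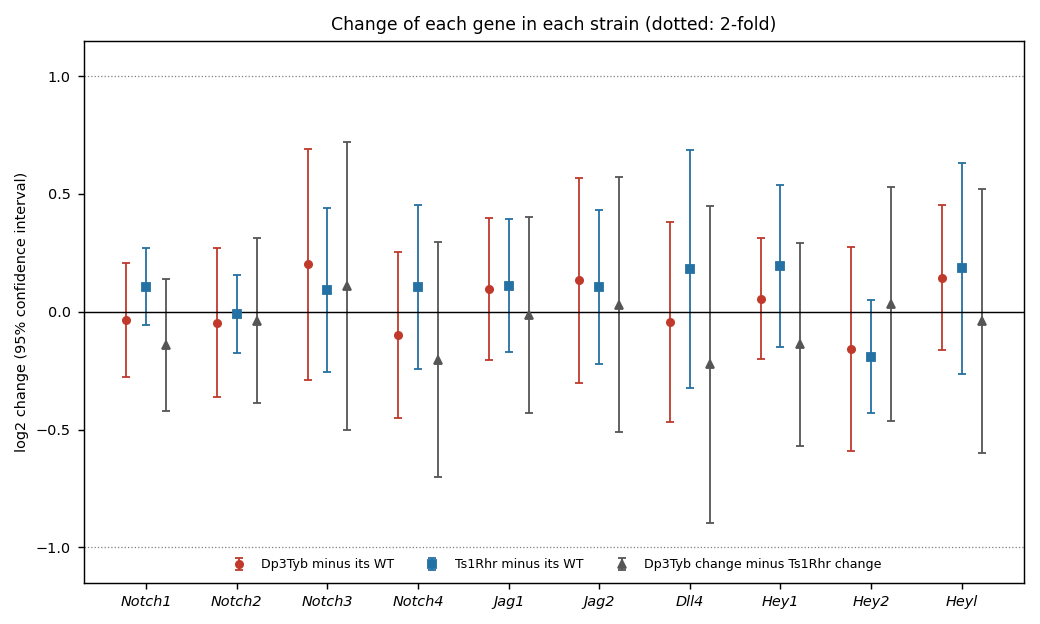
Log2 change with 95% confidence interval of the 10 genes in Dp3Tyb against its WT (red circles), in Ts1Rhr against its WT (blue squares), and the difference between these changes (grey triangles). Every interval crosses 0 and lies inside the dotted lines of 2-fold change.

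Notch1, the receptor of endothelium and endocardium (GRCm38 chromosome 2, 26457902 to 26503822, minus strand), was the most even of the 10 across hearts. WT hearts 1 to 5 of the Dp3Tyb litters held 1651, 1874, 1758, 1878 and 1309 normalized reads and the Dp3Tyb hearts 1800, 1700, 1614, 1744 and 1382. WT hearts of the Ts1Rhr litters held 1412, 1636, 1701, 1451 and 1693 and the Ts1Rhr hearts 1637, 1583, 1902, 1643 and 1727. The 2 groups of each strain overlapped, with 1 low heart in each Dp3Tyb litter group and each of the 5 Ts1Rhr hearts over the average of its WT littermates. The log2 change was -0.03 ± 0.11 in Dp3Tyb and 0.11 ± 0.08 in Ts1Rhr (limma adjusted p = 1.0 and 0.795).

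Notch2, the receptor best known for smooth muscle and for Alagille syndrome (chromosome 3, 98013538 to 98150367, plus strand), was likewise spread over one range in all groups. In the Dp3Tyb litters WT hearts held 1691, 1513, 1744, 1439 and 1116 normalized reads and Dp3Tyb hearts 1490, 1416, 1223, 1891 and 1249. In the Ts1Rhr litters WT hearts held 1464, 1471, 1547, 1363 and 1451, a narrow range, and Ts1Rhr hearts 1284, 1382, 1392, 1533 and 1683. The Ts1Rhr values lay on both sides of their WT range, and the change was -0.01 ± 0.08 in Ts1Rhr and -0.05 ± 0.14 in Dp3Tyb (limma adjusted p = 0.976 and 1.0).

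Notch3, the receptor of vascular smooth muscle and pericytes (chromosome 17, 32120820 to 32166896, minus strand), varied most of the 10 between hearts, by 2.72-fold from the lowest to the highest of 20. Its level in WT hearts of the Dp3Tyb litters was 1362, 982, 1262, 1011 and 567 normalized reads and that in Dp3Tyb hearts 1193, 1166, 959, 1543 and 945. For the Ts1Rhr litters, WT hearts held 1126, 965, 997, 804 and 1281 and Ts1Rhr hearts 805, 1009, 1031, 1211 and 1510. The highest heart of each mutant group lay above its WT range, and the others lay within it. Its change in Dp3Tyb, 0.20 ± 0.22, was the largest positive one of the set and smaller than its SE, and that in Ts1Rhr was 0.09 ± 0.16 (limma adjusted p = 1.0 and 0.862).

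Notch4, an endothelial receptor (chromosome 17, 34564286 to 34588543, plus strand), had the lowest level of the receptors. The 5 WT hearts of the Dp3Tyb litters held 501, 500, 446, 505 and 320 normalized reads and Dp3Tyb hearts 447, 461, 492, 423 and 299. The 5 WT hearts of the Ts1Rhr litters held 369, 403, 401, 295 and 518 and Ts1Rhr hearts 369, 333, 567, 440 and 430. Heart 5 was the lowest of both groups of the Dp3Tyb litters, and the ranges overlapped in both strains. Changes were -0.10 ± 0.16 in Dp3Tyb and 0.11 ± 0.16 in Ts1Rhr (limma adjusted p = 1.0 and 0.842).

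Jag1 (chromosome 2, 137081451 to 137116520, minus strand) was the ligand with the highest level. Among the Dp3Tyb litters, WT hearts held 1233, 1128, 1321, 913 and 931 normalized reads and Dp3Tyb hearts 1185, 1142, 947, 1511 and 1133. Among the Ts1Rhr litters, WT hearts held 1138, 998, 886, 951 and 1050 and Ts1Rhr hearts 844, 1000, 980, 1241 and 1435. As for Notch3, Dp3Tyb heart 4 and Ts1Rhr hearts 4 and 5 were the highest of their groups. The changes were 0.10 ± 0.14 and 0.11 ± 0.13 (limma adjusted p = 1.0 in Dp3Tyb and 0.811 in Ts1Rhr).

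Jag2 (chromosome 12, 112907803 to 112929812, minus strand), a ligand with the lowest level of the 10 genes, held 248, 231, 218, 250 and 123 normalized reads in WT hearts of the Dp3Tyb litters and 218, 260, 251, 252 and 172 in Dp3Tyb hearts. It held 215, 183, 217, 151 and 276 in WT hearts of the Ts1Rhr litters and 208, 182, 250, 245 and 221 in Ts1Rhr hearts. Heart 5 was again the lowest of both groups of the Dp3Tyb litters. The changes were 0.13 ± 0.20 in Dp3Tyb and 0.10 ± 0.15 in Ts1Rhr (limma adjusted p = 1.0 and 0.834).

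Dll4, the endothelial ligand of arteries and angiogenic tip cells (chromosome 2, 119325784 to 119335666, plus strand), held 256, 255, 217, 248 and 144 normalized reads in WT hearts of the Dp3Tyb litters and 211, 240, 245, 244 and 144 in Dp3Tyb hearts. It held 189, 171, 209, 140 and 332 in WT hearts of the Ts1Rhr litters and 210, 148, 316, 243 and 246 in Ts1Rhr hearts. Within each Dp3Tyb litter group 4 hearts were close together and heart 5 was low, whereas the Ts1Rhr litters were spread widely. Changes were -0.04 ± 0.19 in Dp3Tyb and 0.18 ± 0.23 in Ts1Rhr (limma adjusted p = 1.0 and 0.822).

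Hey1 (chromosome 3, 8663359 to 8667038, minus strand), a Hey repressor of atrial myocardium and of endothelium, held 371, 298, 395, 349 and 279 normalized reads in WT hearts of the Dp3Tyb litters and 362, 344, 344, 408 and 295 in Dp3Tyb hearts. It held 307, 270, 281, 266 and 450 in WT hearts of the Ts1Rhr litters and 299, 310.4, 324, 448 and 405 in Ts1Rhr hearts. WT heart 5 of the Ts1Rhr litters was the highest of all 20. The change in Ts1Rhr, 0.19 ± 0.16, was the largest positive one of that strain, and that in Dp3Tyb was 0.06 ± 0.12 (limma adjusted p = 0.795 and 1.0).

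Heyl (chromosome 4, 123233556 to 123249870, plus strand), the Hey gene of vascular smooth muscle, held 523, 407, 468, 339 and 373 normalized reads in WT hearts of the Dp3Tyb litters and 415, 465, 376, 569 and 505 in Dp3Tyb hearts. It held 524, 314, 337, 350 and 653 in WT hearts of the Ts1Rhr litters and 389, 470.5, 400, 506 and 647 in Ts1Rhr hearts. The groups overlapped in both strains, with changes of 0.14 ± 0.14 in Dp3Tyb and 0.18 ± 0.21 in Ts1Rhr (limma adjusted p = 1.0 and 0.807).

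Hey2 (chromosome 10, 30832359 to 30842783, minus strand) was the member with the most negative fitted change in both strains. By heart, WT littermates of Dp3Tyb held 1286, 1476, 1413, 1515 and 2604 normalized reads and Dp3Tyb hearts 1307, 1419, 1416, 1152 and 2027. Those of Ts1Rhr held 1666, 1535, 1471, 2100 and 1865 and Ts1Rhr hearts 1799, 1604, 1417, 1388 and 1341. The ranges overlapped in both strains, and in the Dp3Tyb litters WT heart 5 lay far above the other 4 WT hearts. The change was -0.16 ± 0.20 in Dp3Tyb (0.897-fold, 95% confidence interval 0.664 to 1.21) and -0.19 ± 0.11 in Ts1Rhr (0.876-fold, 0.743 to 1.03), with limma adjusted p of 1.0 and 0.795. Without WT heart 5 the Dp3Tyb change of Hey2 was 0.02, and with the lung score as a term it was 0.00. The unadjusted exact permutation p for Hey2 in Ts1Rhr, 0.159, was the smallest of the 10 members there, and the smallest in Dp3Tyb was 0.381, for Heyl. In bulk hearts, fewer cells of a type and less RNA per cell cannot be told apart.

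**Figure D3:**
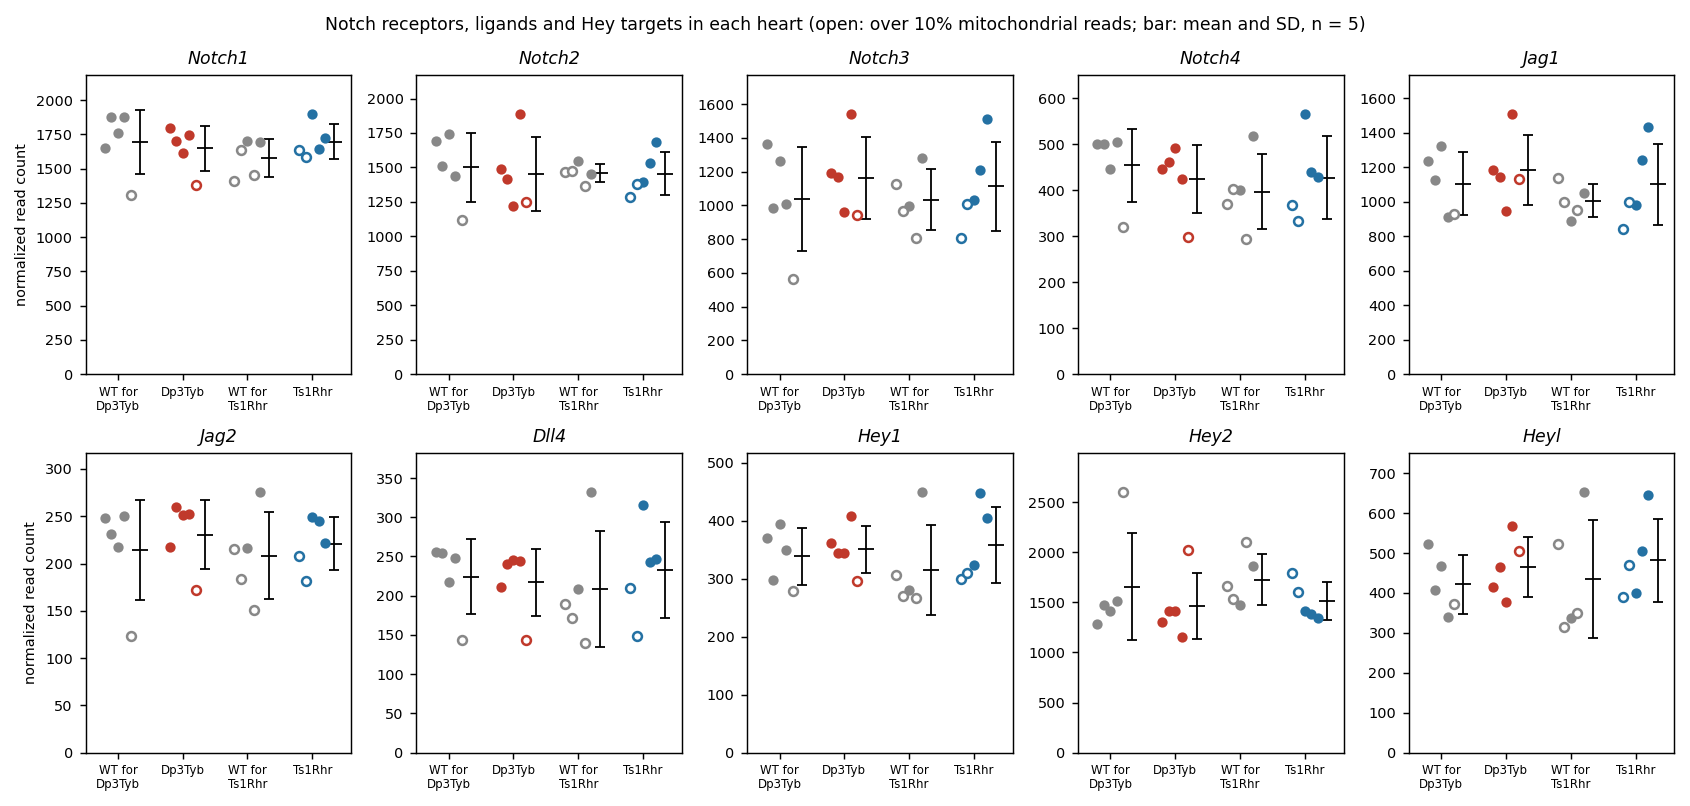
Normalized reads of the 10 genes in each of the 20 hearts, by group, on axes that start at 0. Open circles are hearts with over 10% mitochondrial reads, and black bars give the mean and SD of 5 hearts. The mutant and WT hearts of each strain overlap for every gene, and open circles lie low for Dll4 and high for Hey2.

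The promoter of Hey2 is shown because it was the only 1 of the members with a promoter sequence here whose window held the 7-base core motif of RBPJ. RefSeq gave a promoter (GRCm38.p6, 250 bases before to 50 after the gene's start) for 8 of the 10 members, Hey1 and Heyl having no entry. The motif GTGGGAA, searched on both strands with its reverse complement TTCCCAC, was in 6.38% of all 32851 such promoters, in those of 7.25% of 27025 genes and in 1 of the 8 members. In Hey2 it began 207 and 4 bases before the start, at the motif runs in capitals, in the stretch at chr10:30842781-30843033 on the minus strand:
Hey2 promoter: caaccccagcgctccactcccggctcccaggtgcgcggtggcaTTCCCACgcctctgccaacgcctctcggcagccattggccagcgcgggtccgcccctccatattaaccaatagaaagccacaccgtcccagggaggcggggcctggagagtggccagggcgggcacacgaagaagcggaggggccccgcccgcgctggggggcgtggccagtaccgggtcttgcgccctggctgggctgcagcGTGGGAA
A match of letters is a description of the sequence, and no binding was measured in these hearts.

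The difference between the strains was tested as an interaction over all 20 hearts. For 0 of 10 members did the Dp3Tyb change differ from the Ts1Rhr change by limma at an adjusted p of 0.05 (background 0.0130% of 15348 genes), by an unadjusted p under 0.05 (1.52%), by edgeR (0.0130%) or by DESeq2 (0.0111%). Differences were between -0.22 ± 0.32 for Dll4 and 0.11 ± 0.29 for Notch3 on the log2 scale, with limma adjusted p = 1.0 for each member. Every 95% confidence interval lay within 2-fold, and those of 6 members lay within 1.5-fold.

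The rest of the pathway was followed in 61 further genes, 56 of which had enough reads to be tested. None passed limma at an adjusted p of 0.05 in either strain, and edgeR and DESeq2 also called 0 in both. At an unadjusted limma p under 0.05 there were 0 of 56 in Dp3Tyb, and 3 higher and 1 lower in Ts1Rhr, beside the backgrounds of 2.80% and 5.52% given above. Mfng, a fringe enzyme that adds sugar to Notch, was 1.37-fold higher in Ts1Rhr with a log2 change of 0.46 ± 0.19. WT hearts of the Ts1Rhr litters held 74.5, 69.4, 77.9, 63.2 and 100 normalized reads and Ts1Rhr hearts 105, 65.4, 130, 117 and 121, so that 4 of 5 Ts1Rhr hearts lay above their WT range and heart 2 below all but 1 of them. Its limma p was 0.033 and 0.795 after adjustment, and in Dp3Tyb its change was 0.05 ± 0.24. The other 3 in Ts1Rhr, named after their values were seen, were Furin, the protease that matures the receptor (0.30 ± 0.12), Psen2, a gamma-secretase subunit (0.32 ± 0.13), and Spen, a corepressor of RBPJ (-0.23 ± 0.10).

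Step by step along the pathway, 3 other ligands had 0 called, as did 6 genes of ligand handling, 7 of Notch glycosylation, 10 proteases, 8 genes of the nuclear complex, 10 corepressors, 10 negative regulators and 2 other targets. Dll3, Dlk2, Hes2, Hes5 and Hes7 were too low to be tested, with means of at most 7.39 normalized reads. Dll1, a further ligand, had changes of 0.13 ± 0.15 in Dp3Tyb and 0.21 ± 0.12 in Ts1Rhr. Mib1, the ubiquitin ligase that makes ligands active, had -0.09 ± 0.05 and -0.06 ± 0.06. All 5 Dp3Tyb hearts lay under the WT average for Mib1 and the groups overlapped (unadjusted exact permutation p = 0.0476, limma adjusted p = 1.0). The same held for all 5 Ts1Rhr hearts (unadjusted exact permutation p = 0.175, limma adjusted p = 0.797). The share of all genes under 0.05 by the permutation test was not counted. Adam10, which makes the first cut of the bound receptor, had 0.02 ± 0.08 and 0.00 ± 0.08. In the nucleus, Rbpj had 0.05 ± 0.06 and -0.06 ± 0.07 and its coactivator Maml1 -0.12 ± 0.08 and 0.04 ± 0.07. The targets Hes1 (0.01 ± 0.12 and 0.07 ± 0.08) and Nrarp, a feedback inhibitor (0.01 ± 0.09 and 0.04 ± 0.17), and the fringe gene Lfng (-0.03 ± 0.19 and 0.31 ± 0.24) also did not pass the test.

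Among 22 genes that act with Notch in trabeculae and valves, 0 were called in either strain, beside 0.0542% of all genes in Dp3Tyb and 0.0269% in Ts1Rhr. Efnb2, an ephrin target of endocardial Notch, had log2 changes of -0.01 ± 0.11 in Dp3Tyb and -0.02 ± 0.09 in Ts1Rhr. Nrg1, the endocardial growth factor of trabeculation, had 0.22 ± 0.11 and 0.25 ± 0.21, and Bmp10, the trabecular growth factor, 0.02 ± 0.17 and 0.07 ± 0.13. At an unadjusted p under 0.05 there were 1 of 22 in Dp3Tyb and 0 of 22 in Ts1Rhr, beside 2.80% and 5.52% of all genes. The 1 was Snai1, a regulator of endocardial to mesenchymal transition (0.35 ± 0.16, limma adjusted p = 1.0), named after its value was seen.

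While each member overlapped between genotypes, the members differed together between hearts of 1 genotype. Each member was taken as its deviation from its group mean on the log2 scale, over 20 hearts, and compared with scores of 18 endothelial, 12 mural (smooth muscle and pericyte) and 14 cardiomyocyte marker genes that hold no member. Of 30 relations, 15 passed an adjusted p of 0.05 (100000 permutations within groups, 2-sided). The share of all genes that follow these scores was not counted, so this count cannot be called particular to the members. All values share the library's normalization, and every gene of a heart is read from the same library.

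Of the members, 3 that are known from endothelium followed the endothelial score. Pearson's r was 0.61 for Notch1 (Spearman's rho 0.65, permutation adjusted p = 0.0144), 0.68 for Notch4 (rho 0.68, adjusted p = 0.0069) and 0.60 for Dll4 (rho 0.48, adjusted p = 0.0224 for r and 0.102 for rho). Jag2 (r = 0.47, permutation adjusted p = 0.0785) and Hey1 (r = 0.02, permutation adjusted p = 0.939) did not pass. Without the 2 hearts farthest from the median score the r of Notch1, Notch4 and Dll4 were 0.53, 0.54 and 0.47. Within the Dp3Tyb litters r was 0.48, 0.53 and 0.37 and within the Ts1Rhr litters 0.86, 0.81 and 0.78. Within the 13 hearts of up to 10% mitochondrial reads r was 0.60, 0.69 and 0.36, of which those of Notch1 and Dll4 did not pass (permutation adjusted p = 0.140 and 0.245). In those 13 hearts the same score also had r = 0.70 with Hey2 and was negative with Notch2 (-0.82), Jag1 (-0.82), Notch3 (-0.79), Heyl (-0.62) and Hey1 (-0.54). Without Ts1Rhr heart 3 the calls of Notch1 (r = 0.55) and Dll4 (r = 0.53) were lost, and that of Dll4 was also lost without WT heart 4 (r = 0.57) or 5 (r = 0.55) of the Ts1Rhr litters.

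The mural score moved with 5 members, among them the smooth muscle genes Notch3 and Heyl. Heyl had r = 0.91 (rho 0.91), Jag1 0.87 (rho 0.88), Notch3 0.80 (rho 0.80), Hey1 0.73 (rho 0.60) and Notch2 0.67 (rho 0.62), each with a permutation adjusted p of at most 0.00292 for r and at most 0.0297 for rho. Leaving out the 2 farthest hearts left these r between 0.67 for Notch2 and 0.89 for Heyl, and they were between 0.62 and 0.94 within each set of litters. Within the 13 hearts of up to 10% mitochondrial reads r was 0.94 for Heyl, 0.88 for Jag1, 0.94 for Notch3, 0.75 for Hey1 and 0.70 for Notch2.

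Over all 20 hearts the cardiomyocyte score had a positive r with Hey2 and a negative r with the other 9 members, a division that did not hold in the hearts of up to 10% mitochondrial reads. Hey2 was high in the hearts where the score was high (r = 0.73, rho = 0.75, permutation adjusted p = 0.00187 for r), with r of the same sign within the Dp3Tyb litters (0.82), the Ts1Rhr litters (0.59) and the hearts of up to 10% mitochondrial reads (0.64). The negative r of the 9 others ran from -0.33 for Notch1 to -0.91 for Notch3, and 6 of these 9 passed the adjusted threshold. Jag2 was 1 of the 6 (r = -0.52, permutation adjusted p = 0.0411), but its rho did not pass (-0.36, permutation adjusted p = 0.211), and its call was lost without any 1 of 10 of the 20 hearts, with r between -0.54 and -0.38. Within the 13 hearts of up to 10% mitochondrial reads the r of 4 of the 9 was positive, at 0.60 for Notch4, 0.47 for Notch1, 0.23 for Dll4 and 0.12 for Jag2, and that of Notch2, Notch3, Jag1, Hey1 and Heyl stayed negative, between -0.91 and -0.63.

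The 45 pairs of members were compared as well, a comparison added after the values were seen. The 6 pairs among Notch1, Notch4, Jag2 and Dll4 had r between 0.75 and 0.95, the highest of all 45 being that of Notch4 and Dll4. The 10 pairs among Notch2, Notch3, Jag1, Hey1 and Heyl had r between 0.48 and 0.90. The sets were not separate: of the 20 pairs between them 19 were positive, with r from -0.05 to 0.73 (Notch3 with Jag2), and 7 passed a permutation adjusted p of 0.05 for r. All 9 pairs with Hey2 were negative, from -0.16 with Heyl to -0.84 with Notch2, and 8 of the 9 passed a permutation adjusted p of 0.05 for r.

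These pairs did not all hold within libraries of low mitochondrial share. In the 13 hearts of up to 10%, the pairs of the Notch2, Notch3, Jag1, Hey1 and Heyl set kept r between 0.39 and 0.92, whereas r was between -0.12 and 0.88 in the Notch1, Notch4, Jag2 and Dll4 set, with Notch4 and Dll4 still at 0.88 and Jag2 and Dll4 at 0.84. The 20 pairs between the sets had r between -0.65 and 0.35 there. Hey2 had a negative r with only 4 of 9 members in those hearts, among them Notch2 (-0.76). The 7 hearts over 10% left too few hearts per group for values of their own.

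**Figure D4:**
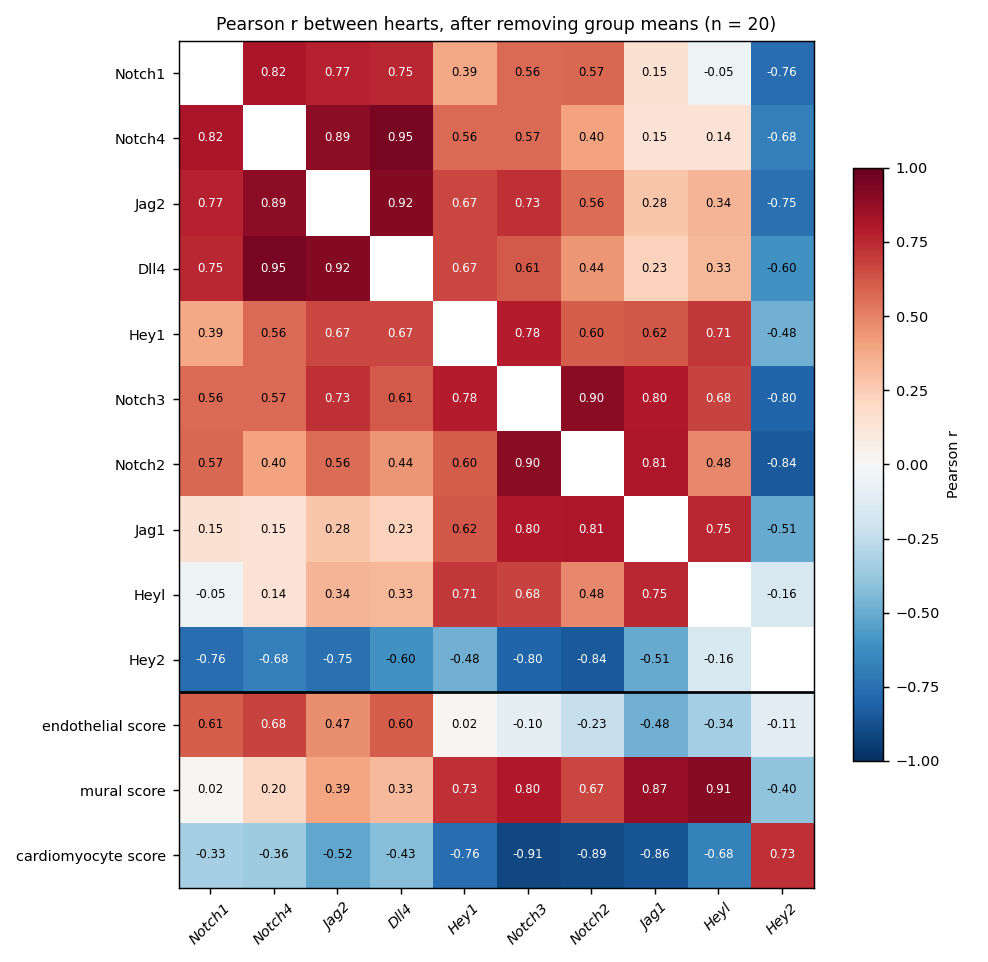
Pearson r over 20 hearts between the members (upper 10 lines) and between members and 3 cell type scores (lower 3 lines), after group means were removed. Notch1, Notch4, Jag2 and Dll4, grouped with the values known, have r from 0.75 to 0.95 with each other. Hey2 is negative with all other members, and the cardiomyocyte score is positive with Hey2 only.

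The mitochondrial share moved with the level of most members. In each of the 4 groups, hearts over 10% had a lower mean than the other hearts for Notch1, Notch2, Notch3, Notch4, Jag2, Dll4 and Hey1, and a higher mean for Hey2. For Jag1 and Heyl the mean was lower in 3 of 4 groups and higher in 1. Dll4 was 0.589 to 0.667 times as high in hearts over 10% as in the others of its group, with 140 to 210 normalized reads in the 7 hearts over 10% and 209 to 332 in the 13 others. Jag2 did not overlap, with 123 to 215 against 217 to 276. The share of all genes that differ, or do not overlap, between these hearts was not counted. Hey2 was 1.06 to 1.83 times as high, with 1535 to 2604 normalized reads over 10% and 1152 to 1865 in the others.

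With the mitochondrial share as a term of the fit, the change of Hey2 was -0.13 in Dp3Tyb and -0.12 in Ts1Rhr and that of Dll4 -0.07 and -0.01, and 0 of 10 members were called. Without the 7 hearts, Hey2 had -0.11 and -0.26 and Dll4 -0.05 and 0.02, again with 0 called. The hearts over 10% were 1 of 5 in both groups of the Dp3Tyb litters, 3 of 5 WT and 2 of 5 Ts1Rhr.

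**Figure D5:**
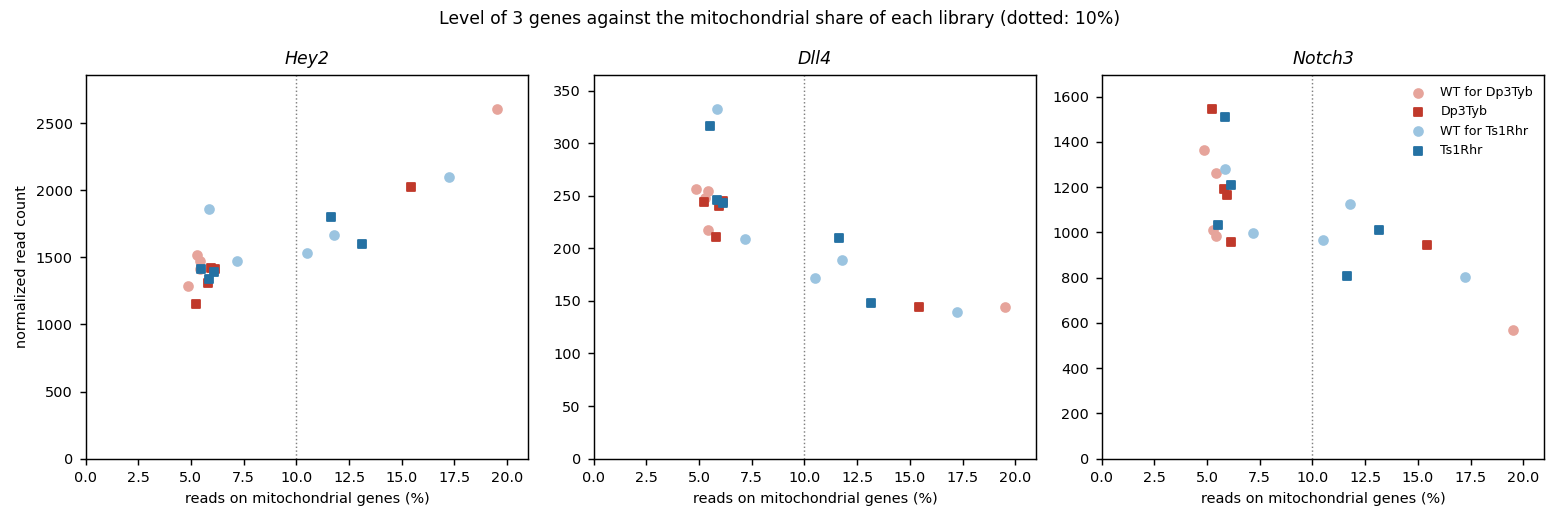
Normalized reads of Hey2, Dll4 and Notch3 in each of 20 hearts against the share of reads on mitochondrially encoded genes, with the 10% limit dotted. Circles are WT and squares mutant hearts. Over 10%, Hey2 lies between 1535 and 2604 and Dll4 between 140 and 210.

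The lung and foregut markers moved with some members. How many of all genes moved with them in the same way was not counted. Among WT hearts of the Dp3Tyb litters, the 3 with Nkx2-1 under 2 had lower Notch2 (1116 to 1513 against 1691 to 1744), Notch3 (567 to 1011 against 1262 to 1362), Jag1 (913 to 1128 against 1233 to 1321), Hey1 (279 to 349 against 371 to 395) and Heyl (339 to 407 against 468 to 523) and higher Hey2 (1476 to 2604 against 1286 to 1413) than the other 2. Among Ts1Rhr hearts, the 2 with Nkx2-1 under 2 held 805 and 1031 Notch3 reads against 1009 to 1510 in the other 3, and their Heyl (389 to 400 against 470.5 to 647) and Jag1 (844 to 980 against 1000 to 1435) did not overlap those 3. Notch2 (1284 to 1392 against 1382 to 1683), Hey1 (299 to 324 against 310.4 to 448) and Hey2 (1417 to 1799 against 1341 to 1604) overlapped. With the lung score as a term, the Dp3Tyb change was -0.05 for Notch3, -0.06 for Jag1, -0.07 for Hey1 and -0.03 for Heyl, each positive without it. The score and the genotype cannot be fully told apart, since all 5 Dp3Tyb hearts held these markers and 3 of their 5 WT hearts did not. WT heart 5 of the Dp3Tyb litters, with 19.5% mitochondrial reads, was 1 of these 3. It held the lowest Notch2, Notch3 and Hey1 and the highest Hey2 of the 3. Ts1Rhr heart 1, with 11.6%, was 1 of the 2 Ts1Rhr hearts with Nkx2-1 under 2. The lung markers and the mitochondrial share are thus mixed in these contrasts.

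The genes whose deviations were most like those of each member were taken from 12100 genes with a mean of at least 50 normalized reads, as a description over 20 hearts. For Hey2 they were Mtus1 (r = 0.98), Acot13 (0.98) and Pln, the phospholamban gene of cardiomyocytes (0.97). For Notch3 they were Nfatc4 (0.97), Col5a1 (0.96) and Tmem119 (0.96), and for Heyl Fbln5 (0.94), Htra3 (0.94) and Ptprz1 (0.94). Dll4 was most like Decr2 (0.98), Fmc1 (0.97) and Klf13 (0.97), Notch4 like Pgp (0.97), Sh3glb2 (0.97) and Slc29a1 (0.97), and Jag2 like Cbx6 (0.97), Bad (0.97) and Glmp (0.97). Notch1 was most like Rab43 (0.96), Rai1 (0.95) and Afg3l1 (0.95), Notch2 like Arhgap28 (0.93), Tns3 (0.91) and Nsg1 (0.91), Jag1 like Clcf1 (0.90), Marcks (0.90) and Ntrk3 (0.89), and Hey1 like Kcnj8, a pericyte channel gene (0.87), Fam117b (0.87) and Btbd3 (0.87). None of these 30 genes was a member.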

How the data were processed

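RNA was extracted from dissected hearts, made into mRNA libraries and sequenced on the Illumina platform. The submitters' processing notes name Trimmomatic 0.36, STAR 2.5.2a, RSEM 1.2.31 and DESeq2 with GRCm38. The study tested differential expression with DESeq2. The roles of the other tools, the gene annotation and the use of strand are not given in the sources used here.

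The authors deposited 1 table of normalized counts (unit: signal), gene counts divided by a size factor for each library. All 20 columns were matched to samples by title, and 0 columns belonged to no sample. Each value was a whole multiple of 1 step per library (100% within a tolerance of 0.001), so reads were recovered.

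The main test was limma 3.58.1 (R 4.3.3), trended and robust, on log2(value + 1) for genes of at least 10 in at least 5 libraries, 2-sided, with Benjamini-Hochberg adjustment over all genes tested, within each strain (10 libraries) and as an interaction (20 libraries). Fold changes on this scale understate those of low genes. The study's DESeq2 test was run as an alternative, since the deposited table holds normalized values. Alternatives were edgeR 4.0.16 and DESeq2 1.42.0 on the recovered reads (10 and 30 genes called in Dp3Tyb, 4 and 21 in Ts1Rhr), a pseudocount of 0.1, no filter, TMM scaling, array weights, a mitochondrial or lung score term, leaving out libraries over 10% mitochondrial reads, and leaving out each library in turn. Scripts were tested on simulated data. Single genes were also compared by an exact permutation test over all 252 splits of 5 and 5 hearts.

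Symbols and exon lengths came from GENCODE vM39 (44565 of 48795 identifiers matched, 91.3%) and positions from RefSeq GRCm38.p6. A marker score was the mean log2 deviation of the listed genes. Named genes were the 10 members, 12 fixed pathway names, any list gene past the threshold (there was none), and the 3 genes most like each member; others are named as such where they appear. Members and lists were chosen with earlier results of these data known. Replicate numbers follow accession order and pair no samples. Depth sets counting error only.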

Additional observations from a re-analysis of the deposited data

Results flagged for a closer look

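Among 40 groups of 5 hearts (10 members in 4 groups), 3 held 1 heart whose gap to the next exceeded Dixon's 95% limit for 5 values, 0.71 of the range, which chance gives in about 1 in 20 groups. Hey2 was highest in WT heart 5 of the Dp3Tyb litters, at 2604 normalized reads beside 1286 to 1515 in the other 4. Jag2 was lowest in the same heart, at 123 beside 218 to 250. That library had the fewest reads of all 20, 6.60 M, and the highest mitochondrial share, 19.5%, and their part in these values was not tested. Without it the Hey2 change in Dp3Tyb was 0.02 and that of Jag2 -0.05 on the log2 scale, each of the opposite sign to the value with it. Hey1 was highest in WT heart 5 of the Ts1Rhr litters, at 450 beside 266 to 307, and without that heart its Ts1Rhr change was 0.33.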

How the results depend on the processing

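No member and none of the 61 other pathway or 22 trabecular genes was called under any alternative run, in either strain. The adjusted p of members was between 0.390 and 1.0 in Dp3Tyb, 0.186 and 1.0 in Ts1Rhr and 0.602 and 1.0 for the difference between strains. Signs were less stable than the absence of calls: over all fits 0 of 10 members kept one sign in Dp3Tyb, 5 of 10 in Ts1Rhr and 4 of 10 for the difference, and the cause was not tested. The members of 1 sign in every fit of Ts1Rhr were Notch1, Jag1, Hey1 and Heyl (positive) and Hey2 (negative), but the sizes moved by over 1.5 times with 1 heart left out: 0.065 to 0.13 for Notch1, 0.0083 to 0.20 for Jag1 (lowest without Ts1Rhr heart 5), 0.11 to 0.33 for Hey1 (highest without WT heart 5), 0.072 to 0.34 for Heyl (lowest without Ts1Rhr heart 5, highest without WT heart 5) and -0.26 to -0.12 for Hey2. Dll4 moved from 0.053 without WT heart 4 to 0.36 without WT heart 5. Every member had counts of 42 reads or more, and the lowest were those of Jag2 (42) and Dll4 (49). The largest SE were those of Notch3 in Dp3Tyb (0.22) and Dll4 in Ts1Rhr (0.23). How far depth limits the precision of each member was not tested.

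In Dp3Tyb the log2 change turned sign with the lung score term for Notch3 (-0.053), Jag1 (-0.056), Hey1 (-0.068), Hey2 (0.0039), Heyl (-0.028), Mfng (-0.075) and Hes1 (-0.071), with array weights for Dll1 (-0.042), with the mitochondrial term for Hes1 (-0.00047), with DESeq2 for Lfng (0.013) and Bmp10 (-0.0068), with edgeR for Lfng (0.013) and Bmp10 (-0.0033), and without libraries over 10% mitochondrial reads for Lfng (0.075). With each heart left out in turn it was -0.12 to 0.028 for Notch1, -0.15 to 0.012 for Notch2, -0.00084 to 0.32 for Notch3, -0.22 to 0.022 for Notch4, -0.053 to 0.23 for Jag2, -0.19 to 0.097 for Dll4, -0.011 to 0.12 for Hey1 and -0.28 to 0.017 for Hey2. It was -0.0047 to 0.21 for Dll1, -0.17 to 0.10 for Lfng, -0.12 to 0.24 for Mfng, -0.047 to 0.040 for Adam10, -0.053 to 0.070 for Hes1, -0.024 to 0.071 for Nrarp, -0.094 to 0.054 for Efnb2 and -0.064 to 0.16 for Bmp10. Jag1 (0.0057 to 0.17, lowest without Dp3Tyb heart 4), Heyl (0.069 to 0.23) and Nrg1 (0.14 to 0.26) moved in size but kept their sign with each heart left out.

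In Ts1Rhr it turned sign with TMM scaling for Notch2 (0.00086), with array weights for Notch2 (0.032), Rbpj (0.018) and Efnb2 (0.016), with the lung score term for Notch2 (0.069), Notch4 (-0.00055), Rbpj (0.026), Efnb2 (0.076) and Bmp10 (-0.012), and with the mitochondrial term for Notch3 (-0.014), Notch4 (-0.027), Jag2 (-0.013), Dll4 (-0.011), Nrarp (-0.075) and Efnb2 (0.046). Without libraries over 10% it did so for Notch2 (0.032), Jag2 (-0.037), Hes1 (-0.018), Nrarp (-0.075) and Efnb2 (0.075). With each heart left out it was -0.064 to 0.034 for Notch2, -0.026 to 0.20 for Notch3, -0.0017 to 0.21 for Notch4, -0.0038 to 0.21 for Jag2, -0.036 to 0.056 for Adam10, -0.0060 to 0.062 for Maml1, -0.044 to 0.19 for Nrarp, -0.0653 to 0.0372 for Efnb2 and -0.025 to 0.17 for Bmp10. Nrg1 (0.030 to 0.35) and Lfng (0.18 to 0.49) moved in size but kept their sign with each heart left out.

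The difference between strains turned sign with array weights for Notch3 (-0.14) and Jag2 (-0.094), with the lung score term for Notch3 (-0.32) and Jag2 (-0.063), with the mitochondrial term for Notch2 (0.010), Jag1 (0.018) and Hey2 (-0.055), and without libraries over 10% for Notch3 (-0.061). With each heart left out it was -0.14 to 0.021 for Notch2, -0.092 to 0.23 for Notch3, -0.10 to 0.089 for Jag1, -0.16 to 0.14 for Jag2, -0.091 to 0.21 for Hey2 and -0.20 to 0.073 for Heyl. The other 4 members kept their sign but moved in size: Notch1 (-0.23 to -0.079), Notch4 (-0.33 to -0.083), Dll4 (-0.41 to -0.083) and Hey1 (-0.27 to -0.052).

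Of the 15 relations with a score, 12 kept their call with each heart left out, the exceptions being Notch1 and Dll4 with the endothelial score and Jag2 with the cardiomyocyte score, whose r was 0.12 without libraries over 10% mitochondrial reads. The count past the threshold was between 13 and 17 over the alternatives.

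No paired analysis was possible because the labels tie no WT heart to a given mutant heart.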

Other observations

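Over the 20 hearts, the other genes of the pathway covered a wide range of levels per kb of exon. Among ligand-like genes Dlk1, a non-canonical ligand, had 283 normalized reads per kb and Dll1 32.3. Adam10 stood at 887 normalized reads per kb and the gamma-secretase subunit Ncstn at 360, whereas Psen2 stood at 22.8 and Aph1c at 2.81. Of the fringe genes, Rfng had 113 normalized reads per kb and Lfng 22.9. The nuclear partners Rbpj (123) and Maml1 (115) were close to the receptors Notch1, Notch2 and Notch3 in level, and the target Hes1 (84.1) was near Heyl. These are levels over all groups, given without a test.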
